A study of Mus musculus with 7 samples.

Results

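The 8 genes Apc, Trp53, Tgfbr2, Smad4, Braf, Pik3ca, Fbxw7 and Ctnnb1 are among the genes most often mutated in colorectal cancer. They were taken by name from a table of 47643 mouse genes, and each was found once, so 8 of 47643 gene rows are described here. The table gives 1 value per gene in each of 7 tumours. The tumours grew under the skin of the right flank of C57BL/6 mice from MTO cells, as the labels call them, with the genotype sgPrkci/Prkcz. The named genes code for atypical protein kinases C. Both groups carry the same edit, so no unedited tumour enters any comparison. Cells were injected in 30% Matrigel into mice 7 weeks old. Treatment began on day 15 and was given 2 times a week for 3 weeks, and the mice were 13 weeks old when the tumours were profiled. The vehicle group has 3 tumours (replicates 14, 16 and 33). The PEGPH20 group has 4 tumours (replicates 11, 12, 19 and 37) from mice given 0.0375 mg/kg PEGPH20, a pegylated hyaluronidase, which cuts the matrix sugar hyaluronan. The comparison of the groups asks how expression in the tumours differed after the enzyme. The labels give neither the driver mutations of the MTO cells nor whether the edited cells were a clone or a pool. Mouse tumour organoids called MTOs in earlier published work came from mice with conditional alleles that include Apc, Tgfbr2 and Trp53, and the labels do not say whether these cells are such a line.

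In normal intestinal epithelium, Apc is a scaffold of the complex that marks beta-catenin, the product of Ctnnb1, for destruction, and loss of Apc lets beta-catenin drive WNT target genes. Tgfbr2 binds TGF-beta at the cell surface and Smad4 carries the signal into the nucleus with Smad2 and Smad3. Braf and Pik3ca encode kinases of the growth factor pathways that start at RAS and at phosphoinositide 3-kinase. Fbxw7 is the substrate receptor of a ubiquitin ligase that targets cyclin E, MYC, JUN, Notch1 and KLF5, and Trp53 encodes the stress-response factor p53. These genes mostly act in cancer through mutation rather than through the amount of their mRNA, and the values below measure mRNA only.

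Ctnnb1, Braf and Trp53 are shown by the 250 bases before a start site, since they are the most abundant member, the member with the smallest spread between tumours and the least abundant member. The bases are those of RefSeq on GRCm38.p6, written 5′ to 3′ on the gene's strand. They are chr9:120933328-120933577 (plus strand) for the downstream of 2 listed Ctnnb1 starts, chr6:39725464-39725713 (minus strand) for Braf and chr11:69580109-69580358 (plus strand) for Trp53. Capitals mark every match, on either strand, to 4 motifs. The TATA box was searched as TATAAA. The other motifs were CCAAT, the GC box in the form GGGCGG, and the cAMP response element in the form TGACGTCA.
Ctnnb1: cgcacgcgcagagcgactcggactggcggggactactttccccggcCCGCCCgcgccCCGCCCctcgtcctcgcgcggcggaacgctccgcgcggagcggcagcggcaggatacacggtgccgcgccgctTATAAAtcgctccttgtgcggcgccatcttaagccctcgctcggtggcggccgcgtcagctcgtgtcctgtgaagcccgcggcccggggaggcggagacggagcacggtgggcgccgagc
Braf: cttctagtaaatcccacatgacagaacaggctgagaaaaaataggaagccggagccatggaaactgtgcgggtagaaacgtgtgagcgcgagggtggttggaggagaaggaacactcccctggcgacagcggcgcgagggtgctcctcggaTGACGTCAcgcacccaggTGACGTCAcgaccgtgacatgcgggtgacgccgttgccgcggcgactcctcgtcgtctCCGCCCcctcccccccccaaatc
Trp53: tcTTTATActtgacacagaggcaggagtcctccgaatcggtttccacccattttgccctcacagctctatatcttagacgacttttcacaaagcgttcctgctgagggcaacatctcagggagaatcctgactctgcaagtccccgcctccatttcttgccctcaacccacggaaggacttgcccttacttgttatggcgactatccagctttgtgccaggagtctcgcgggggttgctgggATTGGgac
The Ctnnb1 window holds 1 TATAAA, 120 bases before the start, and 2 copies of GGGCGG, and its GC content is 74.4%. The window of the upstream Ctnnb1 start, not shown, holds no TATAAA, 2 CCAAT matches and 3 copies of GGGCGG, with a GC content of 74.8%. The Braf window holds 2 copies of TGACGTCA, 99 and 81 bases before the start, and 1 GGGCGG, with a GC content of 62.0%. The Trp53 window has no GGGCGG, 1 CCAAT match 8 bases before the start and 1 TATAAA match 248 bases before it, with a GC content of 52.8%. Among 32851 promoter windows of the same length, 12.4% hold TATAAA, 33.8% CCAAT, 32.7% GGGCGG and 1.55% TGACGTCA, and the median GC content is 52.4%. A match describes the letters of the window and shows no binding.

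Expression was read from the 3′ end of polyadenylated RNA, with 4204388 to 6703775 reads per library. A normalised read count is the number of reads of a gene divided by 1 size factor per library, as the authors deposited it. The tumour epithelium list, 15 markers such as Epcam and Krt8, was detected in full in every library, at a mean log2(value + 1) of 8.75 to 9.02. Its least abundant marker, the intestinal factor Cdx2, read only 2.60 to 16.1 normalised read counts. The log2 difference between the groups ran from -0.56 for Elf3 to 1.92 for Lgals4, so this mean level joins differences of both signs. The edited genes read 144 to 267 normalised read counts for Prkci and 6.94 to 21.5 for Prkcz over the 7 libraries, values that do not test the edit because reads of a transcript end can miss it. Skeletal muscle transcripts from the flank varied most. Their mean log2 level was 9.31 in vehicle replicate 16, 7.08 in PEGPH20 replicate 11 and 5.55 in PEGPH20 replicate 37. The other libraries had 1.65 to 5.32. Skin keratinocyte markers stood at 6.24 in vehicle replicate 14 and at 1.52 to 2.42 elsewhere. All 8 members are also genes that most host cells use, so a value sums tumour and host RNA, and in bulk tumours fewer cells of a type cannot be told apart from less RNA per cell.

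The 8 genes covered a wide range of levels. Ctnnb1 averaged 7366 normalised read counts over the 7 libraries, above 99.9% of the 17132 genes tested. Apc averaged 812, Smad4 604, Fbxw7 549, Pik3ca 491, Tgfbr2 452 and Braf 218. Trp53 came last at 23.2, above 37.8% of the tested genes, while the other members lay above 79.2% or more of them. Reads of a 3′ kit count transcript ends, so these levels were not divided by transcript length. Divided by the longest annotated coding transcript, the order became Ctnnb1, Smad4, Fbxw7, Apc, Tgfbr2, Pik3ca, Braf and Trp53. Ctnnb1 and Trp53 thus kept the first and last place on both scales.

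Ctnnb1 exceeded Apc in 7 of 7 libraries, by 7.25 to 10.9 times in 3′ read counts, and Apc exceeded Smad4 in 7 of 7. The middle of the order was close. Smad4 exceeded Fbxw7 in 6 of 7 libraries, Fbxw7 exceeded Pik3ca in 7 of 7 by 1.03 to 1.26 times, and Pik3ca exceeded Tgfbr2 in 6 of 7. The ranges of these neighbours over the libraries overlapped. Tgfbr2 stood 1.81 to 2.44 times above Braf, and Braf 6.72 to 12.5 times above Trp53, without overlap in 3′ read counts.

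**Figure D1:**
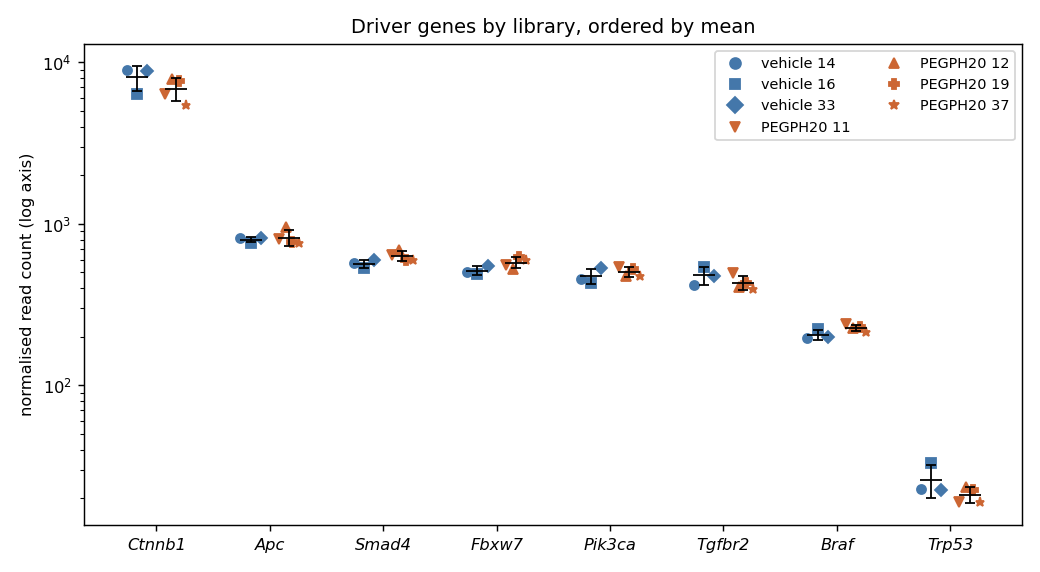
Normalised read count of each driver gene (vertical log axis) in the 3 vehicle libraries (blue) and the 4 PEGPH20 libraries (orange), genes ordered by their mean over all 7 libraries; black bars give the group mean and SD and each symbol is 1 library. Ctnnb1 lies near 7366 and Trp53 near 23.2, and for every gene the groups overlap.

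No member passed the test for treatment. The limma fit across 17132 genes called 0 of the 8 members at an adjusted p under 0.05, and it called 0% of all genes, so the members' count says nothing particular about them. The edgeR test on the recovered reads also called 0% of its 13079 genes. DESeq2 called 0.935% of 8239 genes and none of the 7 members it gave an adjusted p, with no value for Trp53. At an unadjusted p under 0.05 limma held 12.2% of all genes and 0 members. The groups overlapped for all 8 members, beside 11.2% of all tested genes with no overlap (6.72% higher and 4.45% lower with PEGPH20). For 8 genes, a count of 0 lies near both shares, 12.2% and 11.2%, so neither count sets the members apart. The value was larger with PEGPH20 in 5 members and smaller in 3, beside 54% of all genes with a larger and 46% with a smaller value, and the members' median log2 difference was 0.06 beside 0.03 for all genes. Differences are on the log2(value + 1) scale, PEGPH20 minus vehicle, with standard errors.

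Within the WNT pair, Ctnnb1 (ENSMUSG00000006932, chromosome 9, 120929216 to 120960507 on GRCm38) read 8931 in vehicle replicate 14, 6383 in replicate 16 and 8868 in replicate 33. The treated tumours, in the order 11, 12, 19 and 37, read 6380, 7850, 7667 and 5482. Vehicle replicates 14 and 33 were highest, but vehicle replicate 16 lay among the treated tumours. The means were 8061 ± 1454 (SD, n = 3) and 6845 ± 1119 (SD, n = 4), a log2 difference of -0.23 ± 0.17 with a limma adjusted p = 0.579. The 95% interval runs from 0.656 to 1.10 times the vehicle level. With the fibroblast marker level as a covariate the difference was 0.05, which turns its direction, and without vehicle replicate 16 it was -0.39. The last exon of Ctnnb1 overlaps Ulk4 on the other strand, a gene with 58 reads in all libraries together against 67899 for Ctnnb1. Outside the last exon, the microRNA gene Mir7090 overlaps the exons of Ctnnb1 on the same strand by 23 bases and had 2 reads.

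Apc (ENSMUSG00000005871, chromosome 18, 34220924 to 34322552) read 819, 765 and 816 under vehicle, against 806, 956, 767 and 757 with PEGPH20. All libraries but PEGPH20 replicate 12 lay between 757 and 819. The means were 799.9 ± 30.6 and 821 ± 92.4, a log2 difference of 0.03 ± 0.10 with a limma adjusted p = 0.921 and an interval of 0.875 to 1.20 times. The difference was -0.04 without PEGPH20 replicate 12. A pseudogene on chromosome 5, Apc-ps1, had 22 reads in all libraries against 7498 for Apc.

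The ratio of Apc to Ctnnb1 within a library does not depend on how libraries are scaled. It was 0.0917, 0.120 and 0.0921 with vehicle and 0.126, 0.122, 0.09999 and 0.138 with PEGPH20, so vehicle replicate 16 again lay among the treated tumours. The log2 difference of the ratio was 0.27, with an exact two-sided permutation p = 0.143 over 35 splits and an adjusted p = 0.214 over 3 ratios, where the smallest possible p is 0.0286.

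Ctnnb1 varied more between tumours than reads alone allow. The within-group chi-square of its reads was 273 per degree of freedom, over 67899 reads. Its residual SD on the log2 scale, 0.26, was above that of 85.4% of the 500 tested genes nearest in level. The same chi-square was 9.75 for Apc, 6.89 for Tgfbr2, 4.62 for Pik3ca, 4.19 for Fbxw7 and 3.55 for Smad4. Spread beyond counting error was thus not particular to Ctnnb1. The 3 libraries with the most muscle transcripts, vehicle replicate 16 and PEGPH20 replicates 11 and 37, had the 3 lowest Ctnnb1 values, 6383, 6380 and 5482. The fibroblast marker level was 9.27, 8.94 and 10.1 in the vehicle tumours, in the same order, and 8.06, 8.98, 9.17 and 8.29 in the treated ones. Over these 7 libraries log2 Ctnnb1 had a Pearson r = 0.82 with this level (exact permutation p = 0.0188, adjusted p = 0.302 over 16 relations). Spearman's rho was 0.89 (exact permutation p = 0.0123, adjusted p = 0.197). Without the 2 libraries farthest from the median r was 0.91, and as deviations from the group means it was 0.77. The relation therefore did not pass after adjustment, and the part of muscle or fibroblast RNA in the Ctnnb1 values was not tested. All 15 fibroblast markers had a smaller mean with PEGPH20, beside 46% of all genes with a smaller value. None of the 15 passed limma's adjusted threshold, with 8 (53.3%) at an unadjusted p under 0.05, beside 12.2% of all genes. The direction was not particular to fibroblasts. A negative log2 difference was also found in 10 of 10 skeletal muscle, 8 of 8 tested skin keratinocyte and 9 of 10 endothelial markers. The same held for 9 of 12 leukocyte and 10 of 15 tumour epithelium markers.

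**Figure D2:**
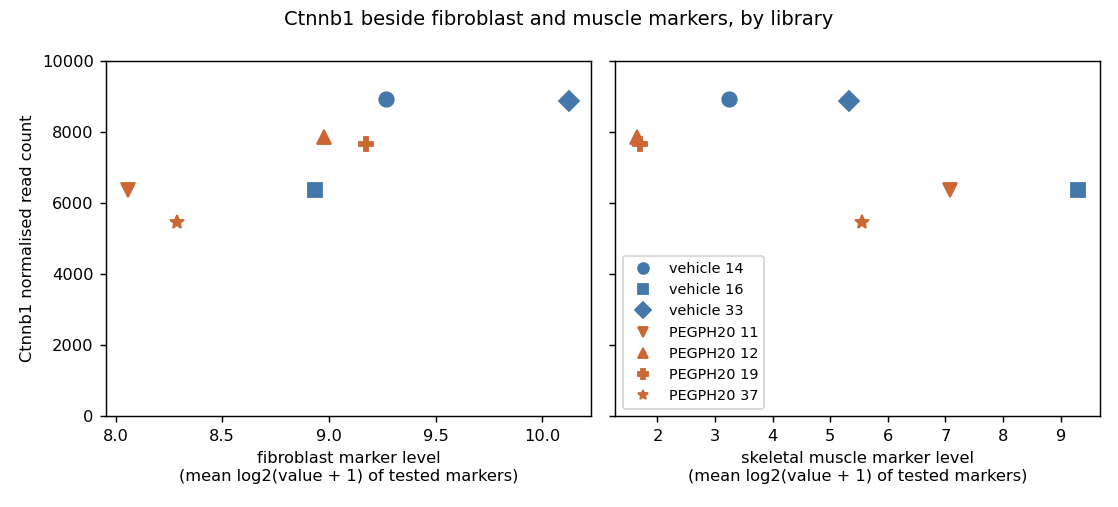
Ctnnb1 normalised read count (vertical axis, from 0) against the mean log2(value + 1) of fibroblast markers (left) and skeletal muscle markers (right); each point is 1 library, blue for vehicle and orange for PEGPH20. The 3 lowest Ctnnb1 values, 5482 to 6383, belong to the 3 libraries richest in muscle markers which are also the 3 poorest in fibroblast markers.

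In the TGF-beta pair, Tgfbr2 (ENSMUSG00000032440, chromosome 9, 116084293 to 116175360) read 419, 543 and 475 under vehicle, against 493, 409, 431 and 395 with PEGPH20. The 2 highest values were those of vehicle replicate 16 and PEGPH20 replicate 11, also the 2 libraries richest in muscle transcripts. The means were 479 ± 62.0 and 432 ± 43.2, a log2 difference of -0.15 ± 0.12 with a limma adjusted p = 0.619 and an interval of 0.754 to 1.08 times. Without vehicle replicate 16 the difference was -0.05. Tgfbr2 had a Pearson r of 0.06 with the fibroblast level and -0.35 with the epithelial level (exact permutation p = 0.887 and 0.460). A 3′ read outside a deleted part would not show a deletion, so neither this level nor that of Trp53 checks the state of the alleles.

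Smad4 (ENSMUSG00000024515, chromosome 18, 73639009 to 73703780) read 572, 532 and 599 under vehicle, against 641, 690, 598 and 600 with PEGPH20. The groups touched by a narrow margin, the highest vehicle value being 598.7 and the lowest PEGPH20 value 597.6. The means were 568 ± 33.5 and 632 ± 43.1, a log2 difference of 0.15 ± 0.09 with a limma adjusted p = 0.508 and an interval of 0.968 to 1.28 times. The ratio of Tgfbr2 to Smad4 was 0.733, 1.02 and 0.793 with vehicle and 0.770, 0.592, 0.721 and 0.659 with PEGPH20. Its log2 difference was -0.30, with an exact permutation p = 0.114 and an adjusted p = 0.214. Without vehicle replicate 16 it was -0.16.

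Among the kinases, Braf (ENSMUSG00000002413, chromosome 6, 39603237 to 39725463) read 196, 222 and 200.4 under vehicle, against 239, 226, 230.3 and 215 with PEGPH20. Vehicle replicate 16 lay above PEGPH20 replicate 37, and the other vehicle libraries lay below all treated ones. The means were 206 ± 14.1 and 227 ± 10.1, a log2 difference of 0.14 ± 0.10 with a limma adjusted p = 0.558 and an interval of 0.951 to 1.28 times. Its residual SD, 0.08, was above that of only 7.8% of the 500 genes nearest in level, and its chi-square per degree of freedom was 0.778, no more than counting error gives. The last exon of Braf overlaps Ndufb2 on the other strand by 146 bases, and no source used here says whether reads were counted by strand, which leaves the Braf value uncertain to that extent (1547 reads for Ndufb2 and 2025 for Braf in all libraries).

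Pik3ca (ENSMUSG00000027665, chromosome 3, 32397671 to 32468486), the catalytic subunit p110-alpha, read 459, 433 and 532 under vehicle, against 543, 473, 524 and 473 with PEGPH20. Vehicle replicate 33 lay within the treated range. The means were 474 ± 51.4 and 503 ± 35.9, a log2 difference of 0.09 ± 0.10 with a limma adjusted p = 0.749 and an interval of 0.906 to 1.24 times. The ratio of Braf to Pik3ca was 0.377 to 0.514 with vehicle and 0.439 to 0.478 with PEGPH20, a log2 difference of 0.05 with an exact permutation p = 0.686. Without vehicle replicate 33 it was -0.05, and without vehicle replicate 16 it was 0.17.

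Fbxw7 (ENSMUSG00000028086, chromosome 3, 84815268 to 84979198) read 503, 488 and 548 under vehicle, against 557, 522, 626 and 595 with PEGPH20. Only PEGPH20 replicate 12 lay below the highest vehicle library. The means were 513 ± 31.4 and 575 ± 45.1, a log2 difference of 0.16 ± 0.09 with a limma adjusted p = 0.504, the smallest of the 8, and an interval of 0.967 to 1.30 times.

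Trp53 (ENSMUSG00000059552, chromosome 11, 69580359 to 69591873) read 22.7, 33.1 and 22.6 under vehicle, against 19.1, 23.4, 22.6 and 18.97 with PEGPH20. These values rest on 23 to 41 reads per library, and the lowest count, 23, has an exact 95% Poisson interval of 14.6 to 34.5 reads, which covers counting error only. Vehicle replicate 16, with 36 reads, stood above the rest. The means were 26.1 ± 6.05 and 21.025 ± 2.34, a log2 difference of -0.28 ± 0.22 with a limma adjusted p = 0.612 and an interval of 0.583 to 1.16 times. The chi-square per degree of freedom was 0.844, so the spread between tumours was not detectable beyond counting error at this depth. Without the 3 libraries richest in muscle transcripts the difference was 0.03, and without vehicle replicate 16 it was -0.11. The annotated 3′ ends of its 4 coding transcripts lie at 2 positions 1 base apart, and the pseudogene Trp53-ps had 0 reads.

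**Figure D3:**
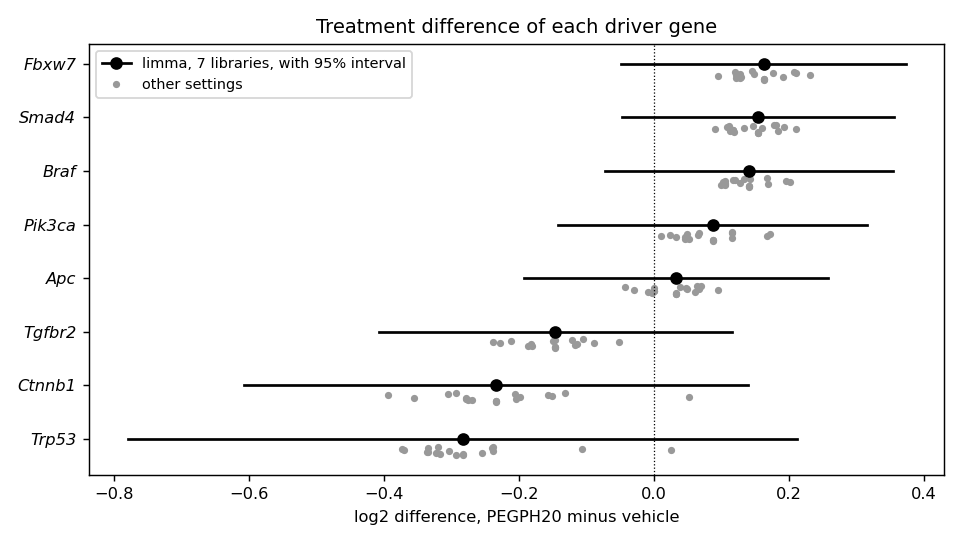
Log2 difference of each driver gene, PEGPH20 minus vehicle (horizontal axis); black points and lines give the limma estimate over 7 libraries and its 95% interval, and grey points give the same difference under 18 other settings. Every interval crosses 0, from -0.28 for Trp53 to 0.16 for Fbxw7.

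Between members, patterns over the libraries were compared by the root mean square difference of log2 values centred on each gene's mean, as a description. Apc and Smad4 were closest, at 0.077, both highest in PEGPH20 replicate 12, and Fbxw7 and Pik3ca followed at 0.099. Ctnnb1 and Trp53 differed most from the other members, by 0.219 to 0.321 and 0.193 to 0.326. Trp53 had only 23 to 41 reads per library, and its spread within groups was not detectable beyond counting error. Its distances and nearest genes can therefore reflect counting error, unlike the well-counted Ctnnb1. Among 8518 other genes with a mean of at least 50, the nearest to Ctnnb1 were Fgd6 (0.064) and Rap2b (0.065), to Apc Kif5b (0.030) and Git1 (0.035), and to Smad4 Tmem248 (0.028) and Cdk12 (0.030). Arnt and Hcfc1r1 were nearest to Tgfbr2, Setd7 and Zc3h13 to Braf, Sumo3 and Wbp4 to Pik3ca, Zkscan1 and Gm37531 to Fbxw7, and Sgpp1 and Snx3 to Trp53. With 7 libraries and this many genes some must lie close, so these names describe the table and no more.

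Each member was set beside its relatives as a share of their 3′ normalised read counts. Pik3ca was the most abundant of the 4 class I catalytic subunits in 7 of 7 libraries, with 61.8% to 74.3%, and Pik3cb, the other broadly expressed subunit, had 15.0% to 19.1%. Pik3cd, the subunit of leukocytes, had 14.3% in vehicle replicate 16 and 3.72% to 7.10% elsewhere. That library also had the highest leukocyte marker level, 8.65 against 7.74 to 8.26. Pik3cg, the remaining subunit, did not peak there. It had 5.25% in vehicle replicate 16 and its largest share, 6.00%, in PEGPH20 replicate 11, where the leukocyte level was 7.98. Tgfbr2 led the TGF-beta receptors in 7 of 7 libraries with 55.8% to 69.0%, above Tgfbr1, its signalling partner. Smad3 (51.2% to 65.5%) stood above Smad4 (27.3% to 38.0%) and Smad2 (7.20% to 10.7%) in 7 of 7. Fbxw7 had 58.0% to 65.3% beside Fbxw11 and Btrc, the receptors that recognise beta-catenin itself.

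Braf read below its relative Araf in 7 of 7 libraries, where Araf averaged 293 normalised read counts beside 218 for Braf. Syn1 on the other strand overlaps exons of Araf, which leaves its level uncertain. Trp53 exceeded its relative Trp63 in 6 of 7 libraries. In PEGPH20 replicate 12 Trp63, a factor of squamous epithelium, read 31.7 against 23.4 for Trp53. The skin keratinocyte marker level, which includes Trp63, was only 2.42 in that library. It was 6.24 in vehicle replicate 14, where Trp63 read 14.8. Apc2, the neuronal relative of Apc, averaged 0.104, under the mean of 1 that the test required.

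**Figure D4:**
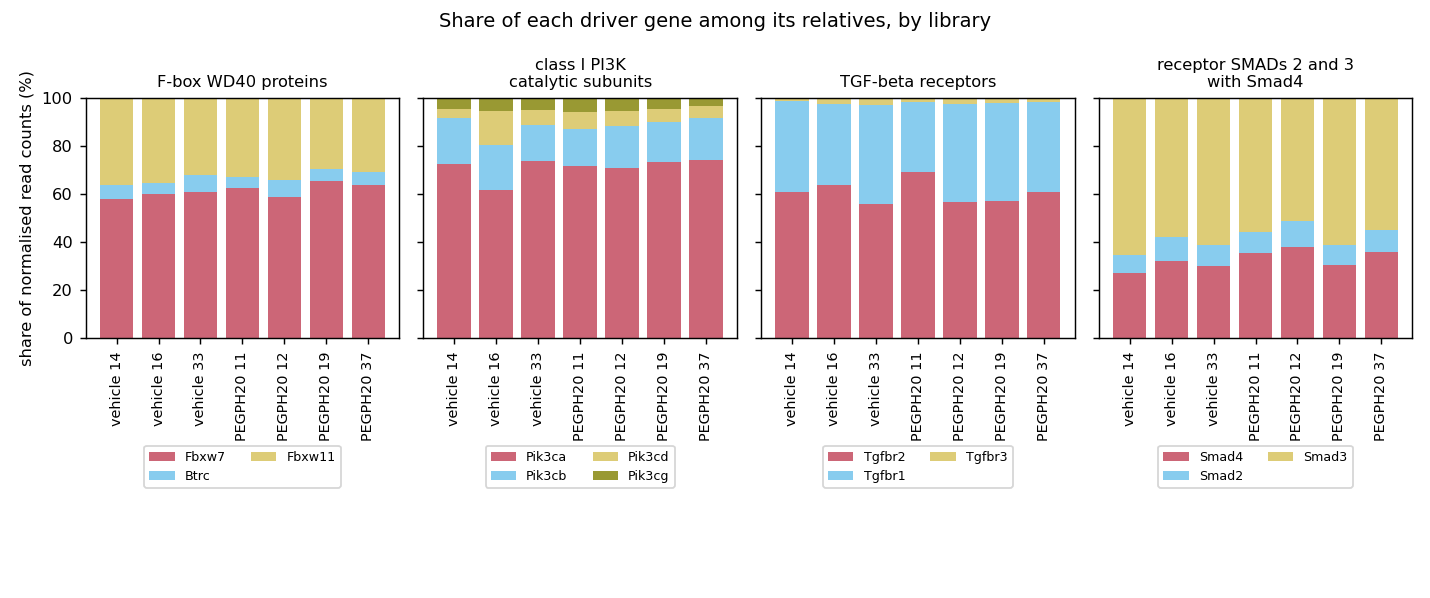
Share of normalised read counts (vertical axis, percent) among the members of 4 gene families in each of the 7 libraries; the driver gene is the lowest, red segment of each bar. Pik3ca, Tgfbr2 and Fbxw7 hold 55.8% or more in every library and Smad4 holds 27.3% to 38.0%. The families were chosen with the values known.

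The pathways around the members were described by lists of partners, none of which had a gene past limma's adjusted threshold. Of all tested genes, 54% had a larger value with PEGPH20, 46% a smaller one and 12.2% a limma unadjusted p under 0.05. The lists were not tested as sets. Of 27 tested WNT partners 14 (51.9%) had a larger and 13 a smaller value with PEGPH20. At an unadjusted p under 0.05 were 3 (11.1%), and the median log2 difference was 0.02 (all genes 0.03). Dvl1, a transducer of the WNT receptor, read 125 ± 2.82 with vehicle and 154 ± 10.4 with PEGPH20. Tnks, which destabilises axin, read 139 ± 6.23 and 107 ± 18.9. Ctnnbip1, an inhibitor of beta-catenin, read 481 ± 74.3 and 381 ± 59.9, and Lef1, a nuclear partner of beta-catenin, 4.99 ± 3.24 and 9.50 ± 3.70. All of these have a gene model on the other strand across their exons and are uncertain. The list's most abundant gene, Cdh1, which binds beta-catenin at cell junctions, read 6333 ± 734 and 6201 ± 479, beside a Ctnnb1 mean of 8061 and 6845.

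Of 21 tested receptors, SMADs and repressors of the TGF-beta and BMP pathways, 17 had a smaller value with PEGPH20, with a median log2 difference of -0.19, and 4 were at an unadjusted p under 0.05. Ski and Tgif1, which repress SMAD-driven transcription, read 429.5 ± 67.0 and 313 ± 32.0, and 425 ± 51.5 and 318 ± 25.8, with limma adjusted p = 0.313 and 0.305. The type II activin receptors had larger values. Acvr2a, uncertain for Orc4 on the other strand, read 107 ± 3.94 and 127 ± 7.16, and Acvr2b 26.5 ± 4.24 and 36.7 ± 8.20. Smad3, the most abundant of the list, read 1185 ± 212 and 1015 ± 131. Fibroblast markers, 15 of 15 smaller with PEGPH20, had the same direction as most of this list. So did most markers of each other cell type list, including tumour epithelium. The part of any cell type was not tested.

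The RAS-RAF-MEK-ERK list had 8 of 22 genes (36.4%) with a larger value and a median of -0.07, with 1 gene (4.55%) at an unadjusted p under 0.05. That gene was Nras, a RAS isoform, which read 1094 ± 36.0 with vehicle against 841 ± 54.7 under treatment. The groups did not overlap, and the log2 difference was -0.38 ± 0.08 with a limma adjusted p = 0.275. Hras read 82.1 ± 14.2 and 104 ± 13.7, Spred1, an inhibitor of RAS signalling, 686 ± 44.8 and 749.8 ± 45.7, and Egfr 103 ± 42.4 and 67.0 ± 19.8.

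In the PI3K-AKT-mTOR list 9 of 23 genes (39.1%) had a larger value, with a median of -0.05 and 3 (13.0%) at an unadjusted p under 0.05. Its insulin receptor substrates had differences of opposite sign. Irs1 read 674 ± 102 and 465 ± 22.9, and Irs2 163 ± 24.3 and 224 ± 17.7, with limma adjusted p = 0.275 and 0.305. Both have antisense gene models across their exons and are uncertain. Inpp4b, a lipid phosphatase, read 47.1 ± 9.92 and 35.8 ± 7.19, and Akt1, the most abundant of the list, 934 ± 45.8 and 895.7 ± 53.35.

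Among 19 tested genes of the SCF ligase and of Fbxw7 substrates, 12 (63.2%) had a larger value, with a median of 0.09. At a limma unadjusted p under 0.05 stood 5 genes, all with larger values. They were 26.3% of the list, beside 12.2% of all genes in either direction (1298 of 17132 with a larger value). Klf5, an epithelial factor that Fbxw7 targets, read 1099 ± 66.1 and 1635 ± 123, without overlap, a log2 difference of 0.57 ± 0.09 with a limma adjusted p = 0.238. Mtor, also in the PI3K list, read 170.3 ± 13.9 and 219 ± 24.6. Mcl1, a survival factor, read 826 ± 59.2 and 717 ± 57.3, and Jun, uncertain for Junos on the other strand, 521 ± 110.1 and 396 ± 80.4.

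Of 23 tested regulators and targets of p53, 11 (47.8%) had a larger value, with a median of -0.02 and 3 (13.0%) at an unadjusted p under 0.05. Gdf15, a secreted stress factor, read 10.8 ± 5.38 and 25.25 ± 8.001, and Atm, the kinase that signals DNA breaks to p53, 233 ± 34.8 and 292 ± 31.8, with limma adjusted p = 0.343 and 0.381. Plk2 read 165 ± 32.7 and 114 ± 16.8 and Ccng1 214 ± 43.2 and 179 ± 14.2, and Usp7, the most abundant of the list, 851 ± 27.7 and 879 ± 47.8.

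Other genes often mutated in colorectal cancer numbered 39, all tested, with a median of 0.05. Of these 23 (59.0%) had a larger value, beside 54% of all genes. At a limma unadjusted p under 0.05 were 8 (20.5%), beside 12.2% of all genes. Pole, a replicative DNA polymerase uncertain for Gm15792 on the other strand, read 49.6 ± 8.95 and 77.6 ± 8.04. Elf3, an epithelial factor uncertain for Gm26642, read 464 ± 62.2 and 313 ± 41.0, and B2m, the light chain of MHC class I and the list's most abundant gene, 10967 ± 3962 and 13148 ± 3027.

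**Figure D5:**
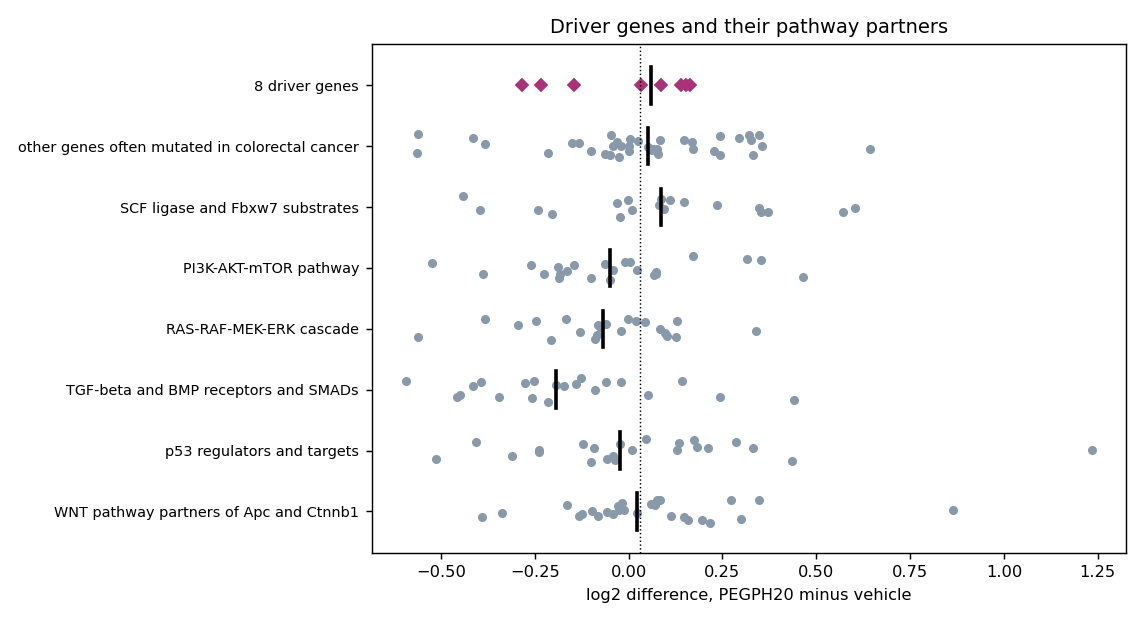
Log2 difference, PEGPH20 minus vehicle (horizontal axis), of every tested gene of 7 pathway lists (grey points) and of the 8 driver genes (diamonds); black bars are list medians and the dotted line is the median of all tested genes, 0.03. The drivers span -0.28 to 0.16, inside the range of each list.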

How the data were processed

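RNA of 7 flank tumours was sequenced, 1 library per tumour. The labels' protocols name the QuantSeq FWD kit (Lexogen) for transcript 3′ ends, an input of 200 ng RNA and single reads of 75 nt. The submitters' processing notes name GRCm38 as the build. Aligner, counting tool and strand setting are not given in the sources used here, nor is it stated whether the optional molecular identifiers were used. The Poisson interval of Trp53 reads covers counting error only, whereas the limma intervals reflect the spread between tumours. For each gene limma moderates this spread towards that of genes of similar level. The interval of a gene with little spread, such as Braf, therefore rests partly on other genes. The deposited signal is a read count after scaling by the authors with a single factor for every library. In all columns 100% of values above 0 were whole multiples of the smallest, within 0.01, so whole reads were recovered. Symbols matched 47224 of 47643 identifiers. Positions come from GENCODE M21 and promoters from RefSeq, which matched 6 of the 8 members.

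The test was limma 3.58.1 with an intensity trend on log2(value + 1), for 17132 genes with a mean of at least 1, treatment as the only term and Benjamini-Hochberg adjustment. It was tested on simulated data, with changes larger than any member's difference and in genes with more expected reads than Trp53. That simulation does not show how often differences as small as those of the members would be found. edgeR 4.0.16 (quasi-likelihood) and DESeq2 1.42.0 on the recovered reads, other scalings, filters and left-out libraries were alternatives. Nothing says more of the replicates than separate tumour labels, so p-values measure the spread between these samples. Named partners are each list's most abundant gene and the 2 of smallest p per direction. The members and lists were chosen with earlier results of these data known. The shares of members in their gene families were added after the values were seen. The share of Braf in its family and its test are not reported here, so the shares given do not show whether any share separated the groups.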

Additional observations from a re-analysis of the deposited data

How the results depend on the processing

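Over 18 other settings in limma, edgeR, DESeq2 and voom, no member was called, and Tgfbr2, Smad4, Braf, Pik3ca and Fbxw7 kept their direction in all 18. Apc turned to -0.0022 with DESeq2 size factors in limma, -0.0082 with upper-quartile scaling and -0.029 in voom with sample weights. Trp53 was 0.026 without the 3 libraries richest in muscle transcripts, and Ctnnb1 was 0.052 with the fibroblast list as a covariate. The cause was not tested. Leaving out 1 library gave -0.043 to 0.070 for Apc, -0.37 to -0.11 for Trp53, -0.24 to -0.05 for Tgfbr2, 0.02 to 0.17 for Pik3ca and -0.39 to -0.13 for Ctnnb1. The log2 difference of the ratio of Braf to Pik3ca then ranged from -0.051 to 0.17, and that of Tgfbr2 to Smad4 from -0.40 to -0.16. DESeq2 called 77 genes of all and limma without vehicle replicate 16 called 3, against 0 in limma with 7 libraries (2083 at an unadjusted p under 0.05). Scaling with DESeq2 size factors moved the median of all genes from 0.03 to -0.0024. With 1 library left out, the difference in family share, PEGPH20 minus vehicle, ranged from -0.573 to 5.36 percentage points for Pik3ca. It ranged from -12.9 to 10.9 for Trp53, -1.87 to 2.64 for Tgfbr2 and -0.0321 to 0 for Apc. For Smad4 it was 3.82 to 6.57 and for Fbxw7 1.98 to 4.13, larger with PEGPH20 each time. With all 7 libraries the Smad4 and Fbxw7 share differences had exact permutation adjusted p = 0.3 and 0.4 over 7 shares. No paired analysis was possible because the groups share no replicate number. Trp53, with 23 to 41 reads per library, is limited by depth; the other members had 225 reads or more.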
